A study of Mus musculus with 6 samples.

Results

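The spindle pole organisers described here are 7 genes, Aurka, Plk1, Tpx2, Numa1, Tacc3, Ckap5 and Prc1. They were chosen by name for what their proteins do, with earlier results of these data known. Prc1 is counted with them although its protein acts at the spindle midzone. Each gene has 1 row among the 10896 genes of the deposited table. RNA was measured by sequencing in mouse oocytes at the germinal vesicle (GV) stage, when the oocyte is full grown and still arrested in meiotic prophase. In 3 samples of 50 oocytes the oocytes had grown in vitro, in follicles freed with collagenase from ovaries of (C57BL x CBA) F1 females aged 10 to 12 days and kept on membrane inserts in medium with 5% fetal bovine serum, insulin, transferrin, selenium and 0.01 µg/ml follicle stimulating hormone. The other 3 samples, also of 50, held oocytes that grew in vivo, collected by puncturing ovaries of females of the same cross aged 7 to 11 weeks, into M2 medium with dbcAMP, an agent that holds oocytes in arrest. Culture, donor age and the collection medium therefore differed together and cannot be told apart, and the labels do not say if samples within a group are from different animals or cultures, so that p-values below measure the spread between these samples, which may be technical.

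Mouse oocytes have no centrioles. When meiosis resumes, many small microtubule organising centres gather around the chromosomes and are drawn together into the spindle poles. The kinases Aurora A and Plk1 enlarge, fragment and disperse these centres, Tpx2 activates Aurora A on microtubules, Numa1 together with dynein focuses microtubule ends into a pole, Tacc3 and Ckap5 stabilise and lengthen microtubules, and Prc1 bundles antiparallel microtubules where the chromosomes part. The proteins are needed after the GV stage, and a GV oocyte carries their messages in store, since it makes little new RNA from then on.

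Promoter sequences are shown for 4 of the genes, to set the control regions of the members with the largest differences in vitro (Plk1, Ckap5 and Prc1) beside that of Aurka, whose difference had the opposite sign. Each runs 5′ to 3′ from 250 bases before the annotated start to 30 bases after it, from RefSeq on build GRCm38.p6. Plk1 lies at chr7:122159185-122159464 on the plus strand, Ckap5 at chr2:91526512-91526791 on the plus strand, Prc1 at chr7:80294201-80294480 on the plus strand and Aurka at chr2:172370541-172370820 on the minus strand. Capitals mark 2 motifs searched on both strands, the CCAAT box (CCAAT), bound by NF-Y, and the cell cycle genes homology region or CHR (TTTGAA or TTCGAA), both known from promoters of genes active in late cell cycle.
Plk1: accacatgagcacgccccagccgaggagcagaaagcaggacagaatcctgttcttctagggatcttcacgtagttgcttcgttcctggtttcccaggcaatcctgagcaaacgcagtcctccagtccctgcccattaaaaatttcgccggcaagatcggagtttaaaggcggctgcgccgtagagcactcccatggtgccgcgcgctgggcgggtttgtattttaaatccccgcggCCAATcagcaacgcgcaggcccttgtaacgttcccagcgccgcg
Ckap5: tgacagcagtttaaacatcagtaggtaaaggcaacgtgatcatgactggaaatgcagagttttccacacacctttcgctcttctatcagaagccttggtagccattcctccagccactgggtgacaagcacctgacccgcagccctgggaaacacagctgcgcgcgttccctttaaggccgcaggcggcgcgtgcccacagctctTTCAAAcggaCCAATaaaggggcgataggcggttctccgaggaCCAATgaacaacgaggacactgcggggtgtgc
Prc1: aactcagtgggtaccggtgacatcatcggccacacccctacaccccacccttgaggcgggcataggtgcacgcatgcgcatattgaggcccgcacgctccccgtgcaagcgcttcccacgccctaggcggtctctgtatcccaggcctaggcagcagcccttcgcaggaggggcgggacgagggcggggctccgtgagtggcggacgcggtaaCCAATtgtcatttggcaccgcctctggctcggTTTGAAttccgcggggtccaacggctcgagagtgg
Aurka: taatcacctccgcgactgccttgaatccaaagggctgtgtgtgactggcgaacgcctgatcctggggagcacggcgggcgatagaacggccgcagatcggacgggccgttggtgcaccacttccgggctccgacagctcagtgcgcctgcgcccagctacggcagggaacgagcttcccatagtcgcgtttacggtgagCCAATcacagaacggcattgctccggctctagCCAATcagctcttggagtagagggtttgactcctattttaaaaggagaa
Each of these windows held a CCAAT box: 14 bases before the start in Plk1, 37 before it in Prc1, 51 and 19 before it in Aurka, and 35 and 2 before it in Ckap5. CHR letters stood 5 bases before the start in Prc1 and, on the other strand, 45 before it in Ckap5. Another window of Prc1, from its second annotated start, held the same matches, and the windows of Numa1 and Tacc3 held neither motif. Of all 32851 promoter windows of this length, 36.1% held a CCAAT box and 18.4% held CHR letters, so the matches are a description of these windows.

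Stored oocyte messages are often kept silent and later switched on through a cytoplasmic polyadenylation element (CPE) near the end of the 3′ untranslated region, and in Xenopus Aurora A phosphorylates the protein that binds it. The last 100 bases of 1 GENCODE transcript of each gene were searched on the transcript strand for TTTTAT or TTTTAAT, and Ckap5 and Aurka held a match. These sites are shown because they are the ones found. Each is 30 bases long, at chr2:91620629-91620658 on the plus strand for Ckap5 and chr2:172356237-172356266 on the minus strand for Aurka (build GRCm38), with the CPE letters in capitals, and in Ckap5 also the polyadenylation hexamer AATAAA that follows them.
Ckap5: taagagacTTTTATaAATAAAgtttgcatt
Aurka: ttaaaggctattTTTTATgttggagttctg
Such letters were found in 17.9% of 19777 genes searched in the same way. The Aurka transcript ended without the hexamer AATAAA or ATTAAA in its last 40 bases, while the other 6 members had it, as had 73.3% of the genes searched.

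The values are the authors' means of normalised reads per group, not divided by gene length, and carry no SD. A gene was called when its PPEE, read as the posterior probability that it is equally expressed in both groups, was below 0.05 in the authors' deposited table. By that rule Prc1 alone of the 7 members fell in oocytes grown in vitro, 0 members rose, and the means of 5 further members were lower in vitro without a call. Among all genes in the authors' deposited table, a share of 15.1% was called, 8.31% lower and 6.75% higher in vitro, so 1 call among 7 genes is near that background. Where means were up to 1000, the whole reads behind them could be solved for each library, as given below for Numa1 and Ckap5. Such solutions are less sure at high means: of test values shifted so that they should have none, 8% in vitro and 10.7% in vivo still had one at means of 200 to 600, and 24.3% in vitro and 41.3% in vivo at means of 600 to 1000. The libraries held between 1392934 and 2109131 reads in the 9040 genes solved in both groups.

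**Figure D1:**
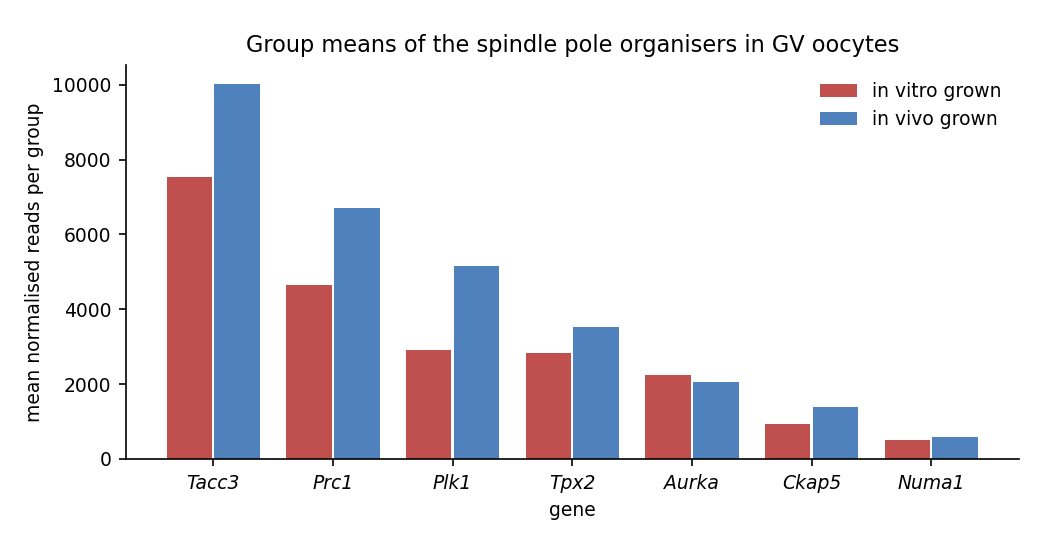
Mean normalised reads per group (vertical axis, from 0) for the 7 genes, in vitro grown oocytes in red and in vivo grown oocytes in blue, as bars without error since the means carry none. The red bar is the lower one for each gene except Aurka.

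The kinases come first in the pathway. Aurka encodes Aurora A, which drives the maturation of microtubule organising centres. Its mean was 2242 normalised reads in vitro and 2048 in vivo, a log2 change of 0.13 (PPEE 0.734 in the authors' deposited table). It was the one member with a higher mean in vitro, and the difference was not called. Plk1 encodes Polo-like kinase 1, which breaks up and spreads these centres at the start of spindle assembly. Its mean was 2918 in vitro and 5156 in vivo, 43.4% lower in vitro. On the log2 scale this is a change of -0.82, the largest among the 7 genes, but it was not called (PPEE 0.465 in the authors' deposited table). Only 6.87% of all genes had a lower log2 change than Plk1.

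Tpx2 encodes the protein that holds Aurora A on spindle microtubules and keeps it active. Its mean was 2833 in vitro and 3538 in vivo, a log2 change of -0.32 (PPEE 0.977 in the authors' deposited table). It was not called, and its PPEE was the highest of the 7.

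Numa1 encodes NuMA, which gathers microtubule minus ends into a pole together with dynein. In recovered reads it had 561, 455 and 425 reads in the A, B and C in vitro libraries, against 716, 730 and 462 reads in the A, B and C in vivo libraries. After scaling these came to 516, 472 and 527 normalised reads in vitro and 579, 647 and 522 in vivo. The groups overlapped, since the highest in vitro library lay above the lowest in vivo one. The level averaged 505 ± 29.3 in vitro and 582 ± 62.5 in vivo (± SD over 3 libraries a group, n = 3). By limma voom over the 9040 genes its log2 change was -0.21 with a standard error of 0.15 (adjusted p = 0.352), and the difference was not called. In the authors' deposited table its PPEE was 0.576.

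Tacc3 and Ckap5 work as partners, Tacc3 as the scaffold that ties clathrin and Ckap5 to spindle microtubules and Ckap5, the mouse counterpart of chTOG, as a polymerase that lengthens them. In mouse oocytes Tacc3 is also a main component of a liquid-like domain around the spindle poles. Tacc3 had the highest means of the 7 genes, 7538 in vitro and 10033 in vivo, a log2 change of -0.41 (PPEE 0.578 in the authors' deposited table). Ckap5 had a mean of 943 in vitro and 1401 in vivo, 32.7% lower in vitro and -0.57 on the log2 scale. Ckap5 came nearest to a call among the members that were not called (PPEE 0.106 in the authors' deposited table). Its recovered reads in vitro were 1170, 855 and 700 in libraries A, B and C, or 1075, 886 and 868 normalised reads (943 ± 115, SD, n = 3 libraries). The highest in vitro library was thus below the in vivo group mean, whose own libraries could not be solved.

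Prc1 encodes the microtubule bundling protein of the spindle midzone, active when homologous chromosomes part and the polar body is pinched off. Its mean was 4654 in vitro and 6720 in vivo, 30.8% lower in vitro and -0.53 on the log2 scale (PPEE 2.57e-11 in the authors' deposited table). Prc1 was called although Plk1 and Ckap5 had larger differences. For these 3 genes the spread between the samples of both groups could not be had. Under the added demand of a 1.5-fold difference Prc1 was no longer called, as its in vivo mean was 1.44 times its in vitro mean. Filters on the genes leave its PPEE as it is, so they could not remove the call and only change the background. That background was 8.53% called lower and 6.9% higher among genes with a mean of at least 10. Among genes whose PPEE was not exactly 1 in the authors' deposited table it was 9.76% called lower and 7.93% higher.

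Counting error is small beside these differences. The recovered scale bounds the number of reads behind a mean, from at least 1220 in vitro and 1547 in vivo for Numa1 to at least 18227 in vitro and 26650 in vivo for Tacc3. The counting error of a mean was then at most 2.86% in vitro and 2.54% in vivo, both for Numa1, and it covers neither amplification nor differences between samples. Among 1003 solved genes with means between 500 and 1000, the median coefficient of variation between libraries was 14.2% in vitro and 7.99% in vivo.

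As a set, 6 of the 7 genes had a lower mean in vitro, with a median log2 change of -0.41. They were chosen with earlier results of these data known, so this is a description and no score over them was tested. The median over all genes of the table was 0.02, and 48.9% of all genes had a lower mean in vitro, or 56.4% of the 2405 genes with a mean of at least 500. Centring on the median of all genes or scaling both groups to equal sums turned the direction of no member. Both shifts were smaller than the change of every member, so they could turn none. Aurka, with the smallest change, went from 0.13 to 0.11 by centring and to 0.08 by equal sums. Long genes tended to be lower in vitro: across all genes the Spearman correlation of the log2 change with gene length was -0.16, a description across genes that share the same libraries. The members were between 1905 and 7214 bases long, and the part of length in their differences was not tested. Markers of the oocyte itself were also lower in sum, with 13 of 13 measured and a total of 158214 in vitro and 215238 in vivo, in normalised reads. Of these, 8 had a lower mean in vitro, 3 were called lower (Bmp15, Nlrp5 and Kit) and 0 higher, and their part in the members' differences was not tested. In RNA of whole samples, fewer messages per oocyte cannot be told apart from fewer oocytes that carry them. The reads were normalised, and 10 ng of total RNA is listed for each sample, so a difference in total RNA per oocyte may not show.

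**Figure D2:**
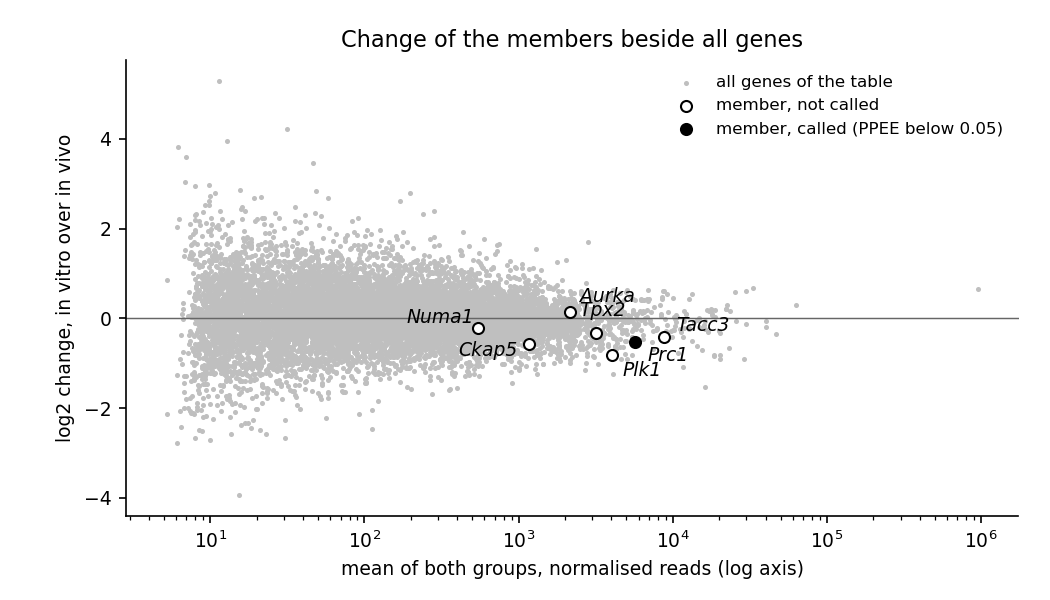
Log2 change of in vitro over in vivo (vertical axis) against the mean of both groups in normalised reads (horizontal log axis), with all 10896 genes in grey, members not called as open circles and the called member, Prc1, filled. The members lie among the well expressed genes, 6 of them below 0, with Plk1 lowest at -0.82.

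Compared per length, the messages fell into 2 tiers. Tacc3 had 2859 normalised reads per kilobase in vitro and 3805 in vivo, rank 115 in vitro and 79 in vivo among the 10896 genes. Prc1 stood at 1533 per kilobase in vitro and 2214 in vivo, Plk1 at 1324 in vitro and 2340 in vivo, Aurka at 1177 in vitro and 1075 in vivo, and Tpx2 at 676 in vitro and 844 in vivo. Ckap5 at 143 per kilobase in vitro and 213 in vivo and Numa1 at 70.0 in vitro and 80.7 in vivo were far lower by this measure. Tacc3, Prc1, Plk1, Aurka and Tpx2 lay above at least 93.9% of genes in vitro and 95.3% in vivo. Numa1 lay above 57.8% of genes in vitro and 61.8% in vivo, so per kilobase it stood near the middle of the genes measured. Numa1 and Ckap5 were also the longest members, at 7214 and 6584 bases. Across all genes, mean reads hardly followed length (Spearman correlation 0.061 in vitro and 0.095 in vivo), so division by length lowers the rank of long genes. Undivided, Numa1 had means of 505 in vitro and 582 in vivo, and only 2405 of the 10896 genes averaged 500 or more. Plk1 ranked below Prc1 in vitro and above it in vivo, a change of order that cannot be set against a spread between samples.

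The paralogs of the members showed no call. Aurkb, the Aurora kinase of the chromosomal passenger complex, averaged 166 ± 33.6 in vitro and 198 ± 9.36 in vivo (± SD over 3 libraries a group, n = 3), and limma voom gave an adjusted p of 0.401. Aurkc, its germ cell relative, had means of 1002 in vitro and 1086 in vivo (PPEE 0.931 in the authors' deposited table). Plk4, which in other cells controls centriole duplication, had means of 2359 in vitro and 2506 in vivo (PPEE 0.976 in the authors' deposited table). Plk2 and Plk3 were scarce. Plk2 had 26, 17 and 15 recovered reads, before scaling, in the A, B and C in vitro libraries and 47, 19 and 19 in the A, B and C in vivo libraries. Plk3 averaged 18.7 ± 8.32 in vitro and 9.90 ± 5.55 in vivo (± SD over 3 libraries a group, n = 3), and the groups of both genes overlapped. Tacc2 averaged 632 ± 62.9 in vitro and 660 ± 42.7 in vivo (± SD over 3 libraries a group, n = 3), with an adjusted p of 0.768 by limma voom. Tacc1 had 224, 224 and 257 normalised reads in the A, B and C in vitro libraries and 389, 307 and 279 in the A, B and C in vivo libraries. Its groups did not overlap, but neither the adjusted p of 0.0991 by limma voom nor the PPEE of 0.0893 in the authors' deposited table passed. How many of all solved genes have groups without overlap was not counted, so such statements here and below are descriptions only.

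Among direct partners of the members, Cltc, Kif4 and Kif11 were called lower in vitro by PPEE, and Kpnb1 was called higher by limma voom. Cltc, the clathrin heavy chain that carries Tacc3 and Ckap5 on the spindle, was 2.03-fold lower in vitro, with means of 949 in vitro and 1926 in vivo (PPEE 0.000116 in the authors' deposited table). The recovered reads of Cltc in vitro came to 1021, 858 and 969 normalised reads in libraries A, B and C, each below the in vivo mean. Gtse1, which binds the same complex, had 1009, 523 and 653 normalised reads in the A, B and C in vitro libraries, against 911, 862 and 927 in the A, B and C in vivo libraries. For Gtse1 the groups overlapped through in vitro library A, the highest of all 6. Bora, a cofactor with which Aurora A activates Plk1, averaged 536 ± 93.2 in vitro and 638 ± 46.6 in vivo (± SD over 3 libraries a group, n = 3), with overlapping groups and an adjusted p of 0.295 by limma voom.

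Cep192, the scaffold that recruits both Aurora A and Plk1 to organising centres, had 140, 143 and 154 normalised reads in the A, B and C in vitro libraries, and 227, 220 and 157 in the A, B and C in vivo libraries. The groups of Cep192 did not overlap but lay close at in vivo library C (adjusted p = 0.134 by limma voom). Pcnt, the pericentrin scaffold of the centres, had means of 1780 in vitro and 1718 in vivo (PPEE 0.981 in the authors' deposited table). Among motors, Kif11, which pushes poles apart, had 545, 333 and 500 normalised reads in the A, B and C in vitro libraries and 710, 712 and 595 in the A, B and C in vivo libraries. The Kif11 groups did not overlap. It was called lower by its PPEE of 0.0489 in the authors' deposited table but not by limma voom (adjusted p = 0.0557). Kif4, the motor that carries Prc1 to microtubule ends, was lower in vitro, at means of 2054 in vitro and 3125 in vivo (PPEE 0.0168 in the authors' deposited table). Dync1h1, the dynein heavy chain that moves NuMA, had 14.7, 44.6 and 34.7 normalised reads in the A, B and C in vitro libraries and 65.5, 45.2 and 66.6 in the A, B and C in vivo libraries, and was not called (adjusted p = 0.0858 by limma voom). Gpsm2, the NuMA anchor at the cortex, averaged 69.5 ± 13.5 in vitro and 65.2 ± 19.0 in vivo (± SD over 3 libraries a group, n = 3).

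The importins hold Tpx2 inactive until Ran frees it. Kpnb1, importin beta, had 604, 1136 and 903 normalised reads in the A, B and C in vitro libraries and 509, 445 and 548 in the A, B and C in vivo libraries. The groups of Kpnb1 did not overlap, and the gene rose in vitro by limma voom (log2 change 0.77, adjusted p = 0.0364). The PPEE of Kpnb1 was 0.385 in the authors' deposited table, and limma voom called it in 1 of the 6 fits that left out a library. Kpna2, importin alpha, had means of 23576 in vitro and 20447 in vivo (PPEE 0.978 in the authors' deposited table).

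**Figure D3:**
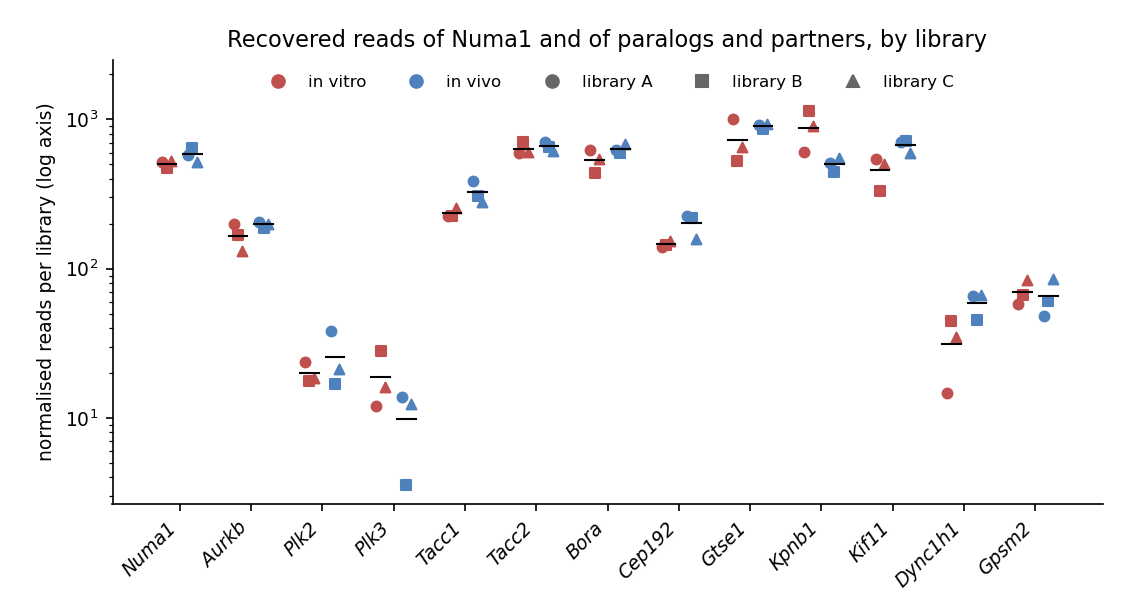
Normalised reads per library (vertical log axis) of Numa1 and of the paralogs and partners solved in both groups, with in vitro libraries in red left of in vivo libraries in blue, a symbol for each library and a black line at the group mean. Numa1 overlaps between groups, whereas Tacc1, Cep192, Kif11, Kpnb1 and Dync1h1 do not. For Dync1h1 the groups nearly touch, at 44.6 normalised reads in an in vitro library and 45.2 in an in vivo one. The share of all solved genes without overlap was not counted, so this is a description only.

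Beyond these, 141 genes of spindle assembly in 6 lists by role gave 137 measured genes; 23 (16.8%) had a lower and 7 (5.11%) a higher call in vitro, beside 8.31% and 6.75% of all genes. Without the 7 members, 22 of 130 genes were called lower and 7 higher. With at least a 1.5-fold difference asked for, 12 of the 137 were called lower and 3 higher, where 5.67% and 4.42% of all genes were. Limma voom on recovered reads called 8 lower and 5 higher among the 96 list genes it could test, beside 5.51% lower and 6.01% higher over all 9040 genes. Of the 17 of these 96 genes called by PPEE and the 13 called by limma voom, 10 were called by both, which is 58.8% of the PPEE calls and 76.9% of the limma voom calls. Over all 9040 genes 749 were called by both, 61.0% of 1227 PPEE calls and 72.0% of 1041 limma voom calls, so the lists were near that background.

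Gamma-tubulin, augmin and the pericentriolar material, which start new microtubules at the poles and along the spindle, gave 10 of 28 genes lower (35.7%) and 1 higher, with a median log2 change of -0.43. Cdk5rap2, a scaffold that activates gamma-tubulin rings, was among those that fell: it had 372, 349 and 333 normalised reads in the A, B and C in vitro libraries, and 578, 571 and 501 in the A, B and C in vivo libraries. These groups did not overlap (log2 change -0.65, adjusted p = 0.0214 by limma voom), and the PPEE of Cdk5rap2 was listed as 0 in the authors' deposited table. Of the augmin subunits, which branch new microtubules off old ones, Haus5 averaged 270 ± 59.1 in vitro and 499 ± 42.2 in vivo and Haus8 233 ± 48.3 in vitro and 404 ± 27.2 in vivo (± SD over 3 libraries a group, n = 3), and both fell (adjusted p = 0.0146 and 0.0199 by limma voom). Haus7, another augmin subunit, rose in vitro to 345 ± 39.7, against 217 ± 12.3 in vivo (± SD, 3 libraries a group, n = 3; adjusted p = 0.0283 by limma voom). Mzt1, a small subunit of gamma-tubulin rings, fell to 430 ± 41.1 in vitro, against 627 ± 41.0 in vivo (± SD, 3 libraries a group, n = 3; adjusted p = 0.0364 by limma voom).

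Tubg2, the second gamma-tubulin, had means of 607 in vitro and 1176 in vivo (PPEE 6.33e-08 in the authors' deposited table). Its in vitro libraries disagreed, at 391, 964 and 465 normalised reads in A, B and C, so library B alone lay near the in vivo mean. Limma voom called 6 genes of this list lower and 1 higher among 22, beside 5.51% lower and 6.01% higher over all 9040 genes. In the 6 fits that left out a library, Haus5 and Cdk5rap2 were each called in 3, Haus8 in 2, and Haus7 and Mzt1 in 1 each. Leaving out 1 library at a time moved the lower count to 8 without in vitro library A, to 2 without in vitro library B, and to 0 without in vitro library C, in vivo library A or in vivo library B. Over all 9040 genes the calls moved in the same fits. They came to 11.8% lower and 16.1% higher without in vitro library A, 1.77% lower and 1.89% higher without B, and 0.321% lower and 0.31% higher without C. Without in vivo library A they came to 0.199% lower and 0.0885% higher, without B to 0.487% lower and 0.177% higher, and without C to 3.74% lower and 3.22% higher.

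The midzone proteins and spindle kinesins, to which Prc1 belongs, gave 7 of 22 genes lower (31.8%) and 2 higher (9.09%) by PPEE, with a median log2 change of -0.20. Of all genes, 8.31% were called lower and 6.75% higher. Without Prc1 the lower calls in this list numbered 6. Limma voom called 0 lower and 0 higher among the 10 genes of this list it could test, which do not include Prc1. At an unadjusted p below 0.05, limma voom had 2 of the 10 lower and 1 higher. The share of all genes at that threshold was not counted, so nothing is read from these counts. With at least a 1.5-fold difference asked for, the PPEE calls in the list were 3 lower and 0 higher, where 5.67% and 4.42% of all genes were. At a PPEE below 0.01 in the authors' deposited table, the lower calls numbered 3 in place of 7, where 6.53% of all genes were called lower. Ect2, which turns the midzone signal into a cleavage furrow, had means of 1166 in vitro and 2028 in vivo. Kifc1, a minus end motor that focuses poles, had means of 373 in vitro and 730 in vivo, and Kif20b, a midzone kinesin, 1015 in vitro and 1363 in vivo. The PPEE of Ect2, Kifc1 and Kif20b were 2.02e-06, 0.0115 and 0.00677 in the authors' deposited table. Kif22, a chromosome bound kinesin, rose, with means of 4496 in vitro and 3575 in vivo (PPEE 1.14e-10 in the authors' deposited table). Cdca8, borealin of the chromosomal passenger complex, had means of 3103 in vitro and 2809 in vivo (PPEE 0.0052 in the authors' deposited table).

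The other lists held few calls. Of 22 genes of the Aurora A and Polo kinases, their activators and opposing factors, 3 were called higher (13.6%) and 0 lower, with a median log2 change of -0.10. They were Fzr1 and Fbxw7, which direct the breakdown of mitotic proteins, and Ppp6c, the catalytic subunit of the phosphatase that switches Aurora A off. Ppp6c had 217, 235 and 254 normalised reads in the A, B and C in vitro libraries and 192, 162 and 155 in the A, B and C in vivo libraries, without overlap. The PPEE of Ppp6c was 0.00103 in the authors' deposited table, while limma voom did not call it (adjusted p = 0.103). Fzr1 rose in vitro to 217, 399 and 287 normalised reads in libraries A, B and C, against 160, 98.3 and 156 in the A, B and C in vivo libraries (adjusted p = 0.0217 by limma voom). Fbxw7 rose in vitro to 94.8 ± 27.3, against 46.0 ± 6.26 in vivo (± SD, 3 libraries a group, n = 3; adjusted p = 0.0468 by limma voom). Of the 6 fits that left out a library, Fzr1 was called in 2 and Fbxw7 in 1. At a PPEE below 0.01 in the authors' deposited table, the higher calls numbered 1 in place of 3, beside 4.78% of all genes called higher.

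Of 20 genes of the Ran pathway and its cargoes, Rangap1 and Dlgap5 were called lower (10.0%) and 0 higher by PPEE. Among all genes 8.31% were called lower and 6.75% higher, so the lower share of this list was near that background. Rangap1, the activator of the Ran GTPase, had 57.0, 32.1 and 70.7 normalised reads in the A, B and C in vitro libraries and 179, 175 and 225 in the A, B and C in vivo libraries. Every in vitro library lay below every in vivo one, and the log2 change of -1.91 (adjusted p = 0.00461 by limma voom) was called in all 6 fits that left out a library. Dlgap5, a Ran regulated microtubule stabiliser, had means of 1031 in vitro and 1391 in vivo (PPEE 0.000366 in the authors' deposited table). Limma voom also called Chd4, a chromatin remodeller with a role at the spindle, higher (log2 change 0.66, adjusted p = 0.0369), and again in 1 of the 6 fits that left out a library.

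In the list of TACC, clathrin and plus end proteins, 2 of 22 genes were called lower (9.09%) and 1 higher (4.55%): Cltc and Map4, a microtubule stabiliser, fell, and Ckap2l, a spindle protein, rose. Map4 had means of 1188 in vitro and 1601 in vivo, and Ckap2l 579 in vitro and 426 in vivo. The list of NuMA, dynein and the cortex gave 2 of 23 genes lower (8.70%) and 0 higher, Dync1i2, a dynein intermediate chain, and Epb41l2, a relative of the cortical protein that binds NuMA. Dync1i2 had means of 1518 in vitro and 1906 in vivo, and Epb41l2 607 in vitro and 860 in vivo. Limma voom called 0 genes among 16 of the first list. At an unadjusted p below 0.05 limma voom had 3 lower and 2 higher there, again without a counted share of all genes. Among 19 genes of the second list limma voom called 1 lower, Epb41l2 (adjusted p = 0.0463), and 0 higher. The shares called by PPEE in both of these lists were near those of all genes.

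**Figure D4:**
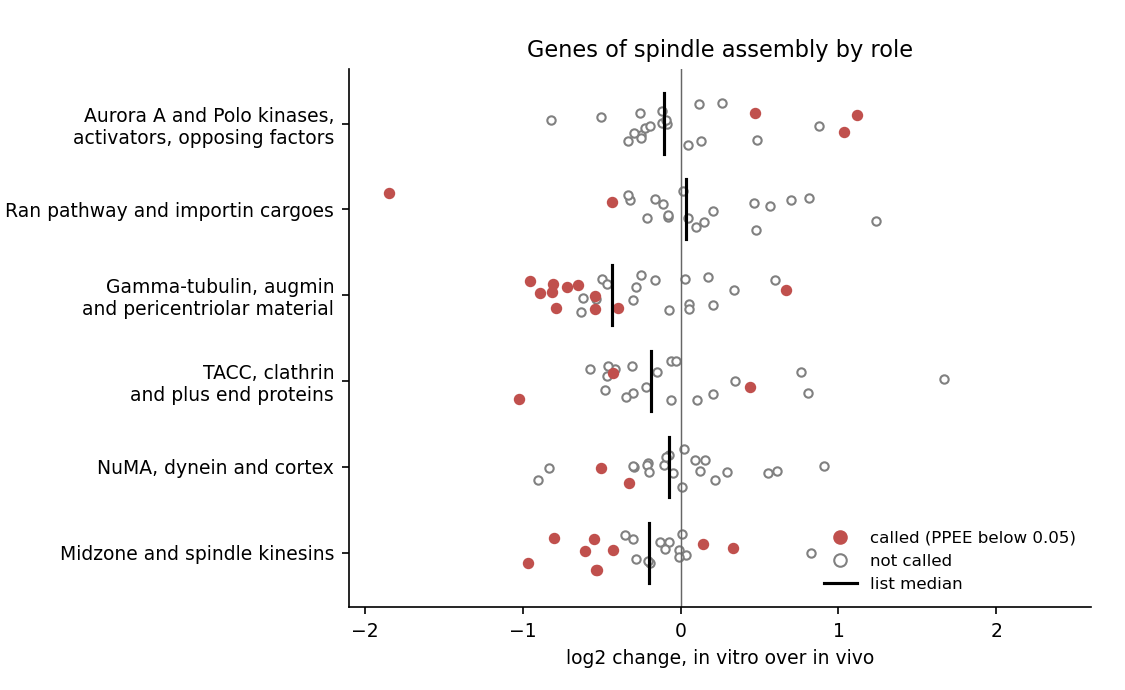
Log2 change of in vitro over in vivo (horizontal axis) of each measured gene in 6 lists by role (rows, with points spread vertically for legibility), filled where called at a PPEE below 0.05 and open where not, with a black line at each list's median. Gamma-tubulin, augmin and pericentriolar material has its median at -0.43 with 10 filled points below 0, and the Ran pathway has its median at 0.03.

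Each of the 13 oocyte markers was abundant, with means between 1008 and 37810 in vitro and between 718 and 43120 in vivo. Granulosa and cumulus markers were low. The 8 of 13 in the table summed to 407 normalised reads in vitro and 290 in vivo, and none of the 8 was listed at 0. The other 5, among them Amh and Foxl2, had no row there, so their levels are unknown. Fshr, at 12.4 in vitro and 2.45 in vivo, and Inha, at 96.6 in vitro and 28.9 in vivo, were called higher in vitro by PPEE. Limma voom called Inha (adjusted p = 0.00942) and Hsd17b1 (adjusted p = 0.0464) higher but not Fshr (adjusted p = 0.0723). Cyp19a1, at 157 in vitro and 110 in vivo, and Ptgs2, at 10.2 in vitro and 8.32 in vivo, had higher means in vitro without a call. Nr5a2, Kitl and Gja1 had lower means in vitro, with log2 changes of -0.33, -0.11 and -0.03, without a call. The part of other cells in the differences above was not tested.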

How the data were processed

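Group means came from the authors' deposited table: the signal per gene and group is the mean the authors took over the 3 samples after normalising the reads, and how they normalised is not given in the sources used here. The submitters' processing notes name BWA and the build mm9. The deposited log2 ratio of the authors was inverted, so that a positive change means higher in vitro. Adding 0.599 to each mean gave the deposited ratio back. The deposited PPEE, another value of the authors, was read by the usual meaning of the term, and its tool is not given in the sources used here. Folds were taken from the group means.

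The tests planned on samples could not be run on group means, and the recovery of reads up to these means was chosen after seeing the data. Each group mean adds up the whole reads of 3 libraries weighted by 1 step per library, so the steps were found from low means and each mean below 1000 was solved for whole reads to its 10 digits, with every library between 0.4 and 2 times the group mean above means of 200. A single solution was found for 95.1% to 96.7% of means by group and range, against 0.667% to 41.3% of shifted values that should have none. The share was highest for in vivo means above 600. Libraries are named A, B and C by step size and cannot be tied to the replicate numbers of the labels. The size factors of A, B and C came to 1.09, 0.965 and 0.806 for in vitro and 1.24, 1.13 and 0.885 for in vivo libraries. Recovered reads were tested with limma 3.58.1 (voom, 2-sided, Benjamini-Hochberg adjusted over 9040 genes, threshold 0.05) in R 4.3.3, and the steps were tested on simulated data. Counting errors cover counting only.

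The members and lists were chosen with earlier results of these data known. Named were all 7 members, 18 paralogs and partners, and the called genes of each list, or the 6 with the smallest PPEE. Chd4 falls outside that rule and was named after its value was seen. Of the gene identifiers, 10875 were found in RefSeq's GRCm38 annotation, which gave names only, and 6 of the 7 members had a promoter entry. Cell type markers were counted in the same table.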

Additional observations from a re-analysis of the deposited data

How the results depend on the processing

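Prc1 stayed called at a PPEE below 0.01, but 0 members were called lower when at least a 1.5-fold difference was also asked for. The filters on the mean and on a PPEE of exactly 1 leave the PPEE of Prc1 as it is and could not remove its call. Under that demand the list genes called fell to 12 lower and 3 higher, against 23 and 7, a rule applied to the lists after seeing the data. Each member kept the sign of its log2 change under centring and equal sums, as it had to, since both shifts were smaller than its change. Pseudocounts of 0, 1 and 10 were also tried, but adding the same value to both means cannot turn a sign. The median of the members stayed below 0 without each member in turn, as it had to with 6 of 7 members below 0. The log2 change of Numa1 by limma voom ranged from -0.28 to -0.13 without single libraries (adjusted p 0.275 to 0.702). Counts of list genes called by limma voom ranged from 1 to 20 lower and from 0 to 18 higher without single libraries, against 8 and 5, fits also added after seeing the data, and the cause was not tested. No paired analysis was possible because the recovered libraries carry no replicate numbers. Plk1, Prc1, Tacc3, Aurka and Tpx2 have means above the range that could be solved, so their spread between samples is unknown.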
